A study of Mus musculus with 4 samples.

Results

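The genes described here are 54 interferon-stimulated and nucleic acid sensing genes, measured by RNA-Seq in group 2 innate lymphoid cells (ILC2s) from bronchoalveolar lavage (BAL) fluid of mice. They were listed by name as genes of the interferon response, with no threshold on their values, and were matched by gene symbol. All 54 were found among the 24537 genes of the files, and 51 of them reached a mean of 2 RPKM over the 4 libraries and were tested, as were 9523 genes in all. *Ifit2*, *Oas2* and *Ifi204* did not reach that mean.

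The study compared ILC2s that had been activated acutely by IL-33, an alarmin cytokine, with ILC2s from airways chronically exposed to house dust mite (HDM) extract. There were 2 libraries from IL-33-treated mice, which received 3 doses of 0.5 µg given every other day into the airways, and 2 libraries from mice given 25 µg HDM intranasally 3 times a week for 5 weeks. BAL fluid cells of both groups were sorted 1 day after the final challenge as lineage-negative, Sca-1+, YFP+ cells from GATIR mice, which are on a C57BL/6 background and report *Gata3* expression with YFP, at about 8 to 16 weeks of age. The sample labels give the IL-33 mice as Gata3 YFP/YFP and the HDM mice as YFP/WT and call the populations CD25High and CD25Low, whereas the study's methods state that all mice were homozygous without mention of a CD25 gate. Genotype and any CD25 gate therefore cannot be told apart from treatment if the labels hold. The type of stimulus likewise cannot be told apart from the length of exposure. The series held no untreated ILC2s, so a difference between the groups cannot be read as a rise or fall from a baseline. The number of mice in each library is not given in the sources used here, and the p-values cover no more than how far replicate libraries lay apart, a spread that may be technical.

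Interferons bind receptors on the cell surface and activate the kinases JAK1 and TYK2, which phosphorylate STAT proteins, among them STAT2. STAT2 acts with IRF9 in a complex that binds the interferon-stimulated response element (ISRE) in promoters, while interferon-gamma signals through the gamma-activated site (GAS). Cells make interferon when RIG-I and MDA5 detect viral RNA in the cytosol and signal through MAVS, or when cGAS detects cytosolic DNA and signals through STING. Many of the sensors are themselves induced by interferon.

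The libraries held 10696031 to 12054770 reads in genes after IL-33 and 15650717 to 16092263 after chronic HDM. Of these, 3.45% to 4.95% came from 45S ribosomal RNA after IL-33 and 17.4% to 25.4% after chronic HDM. Over all genes tested, the 2 IL-33 libraries correlated with r = 0.975 and the 2 chronic HDM libraries with r = 0.825 on the log2(RPKM + 1) scale, a description across genes, which are not independent replicates. *Il2ra*, encoding CD25, had 432 and 376 RPKM after IL-33, against 27.6 and 22 RPKM after chronic HDM. A CD25 gate, if one was used, would select for this difference. *Gata3* had 14.9 and 18.9 RPKM after IL-33, against 216 and 195 RPKM after chronic HDM. The 14 ILC2 markers all had reads in both groups. Among 17 macrophage markers, 6 were higher in both chronic HDM libraries than in either IL-33 library and 0 were lower. All 6 were among the 12 tested (50%, against 23.5% of all genes tested). The 17 markers summed to 1340 and 316 RPKM after IL-33, against 3185 and 9474 RPKM after chronic HDM, most of it from *Chil3* and *Lyz2*. The defining marker *Fcgr1* had no reads in any library, and *Adgre1* had 0 and 0.026 RPKM after IL-33 against 9.25 and 3.43 RPKM after chronic HDM. Dendritic cell markers summed to 31.7 and 35.4 RPKM after IL-33, against 9.84 and 8.03 RPKM after chronic HDM, with *Siglech* at 0 throughout. After IL-33 most of this was *Batf3*, at 23.9 and 26.1 RPKM.

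The promoters of these genes carried the letters of interferon response elements in a larger share than promoters at large. RefSeq promoter windows of 300 bases (250 before and 50 after the gene start, build GRCm38.p6) were at hand for 41 of the 54 genes. The ISRE core GAAANNGAAA, searched on both strands with overlapping matches counted, was found in 23 of the 41 (56.1%), against 1079 of 27025 genes with a window (3.99%). The GAS core TTCNNNGAA, whose letters read the same on both strands, was found in 15 (36.6%), against 9.55% of all. A total of 8 genes held both. The stretches that follow are shown for genes on both sides of the comparison, with 10 bases either side of the core and the core in capitals, and each is read 5′ to 3′ on the strand given. The first 6 were higher in both chronic HDM libraries and the next 5 in both IL-33 libraries. The last, *Irgm2*, has an element nearly that of its neighbour *Igtp*. It was only narrowly higher in both chronic HDM libraries, at 9.28 against 9.0 RPKM for the nearest libraries.
Ifit1, chr19:34640794-34640823, minus strand: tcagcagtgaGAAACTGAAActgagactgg
Ifit3, chr19:34583397-34583426, minus strand: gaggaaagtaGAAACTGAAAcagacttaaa
Rsad2, chr12:26456553-26456582, plus strand: tctgttttctGAAAATGAAAgttggaccag
Oas3, chr5:120777715-120777744, minus strand: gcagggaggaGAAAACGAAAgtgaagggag
Isg15, chr4:156200871-156200900, minus strand: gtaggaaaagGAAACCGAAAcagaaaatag
Ddx58, chr4:40239804-40239833, plus strand: ctggccatagGAAATCGAAActgcctcagg
Ifitm3, chr7:141010706-141010735, minus strand: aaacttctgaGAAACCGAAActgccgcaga
Eif2ak2, chr17:78882535-78882564, minus strand: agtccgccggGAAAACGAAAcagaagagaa
Lgals9, chr11:78984890-78984919, plus strand: gctgagctagGAAACAGAAAccacagctat
Gbp7, chr3:142530273-142530302, minus strand: atggagaactGAAACTGAAActgcacacac
Igtp, chr11:58199512-58199541, plus strand: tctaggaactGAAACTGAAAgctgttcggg
Irgm2, chr11:58214903-58214932, plus strand: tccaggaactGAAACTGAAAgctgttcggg

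*Ifit1*, *Ifit3*, *Gbp7*, *Igtp* and *Irgm2* shared the same 10 letters of core, GAAACTGAAA, and *Oas3* and *Eif2ak2* shared GAAAACGAAA. By order of the libraries alone, the genes of each set lay on both sides of the comparison. Among them only *Ifit1*, *Igtp* and *Oas3* had an adjusted p under 0.05 from limma. Of the 30 bases shown for *Igtp* and *Irgm2*, 29 were identical. Among genes with a window, the core was present in 8 of 12 (66.7%) that were higher in both IL-33 libraries. It was present in 12 of 19 (63.2%) that were higher in both chronic HDM libraries. No core was found in the windows of *Oasl1*, *Oasl2*, *Ifi44*, *Ifitm1* and *Lgals3bp*, which says only that these letters are not in this stretch. A match is a description of letters, not evidence of binding.

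The 54 genes did not move as a block. Canonical antiviral genes such as *Ifit1*, *Rsad2*, *Oasl2* and *Rtp4* were lower in both IL-33 libraries than in either chronic HDM library, with mean RPKM 6.76-fold higher after chronic HDM for *Rtp4* and 8.94-fold for *Rsad2*, while the IFITM genes, *Tmem173* (STING) and the galectin-related genes were higher after IL-33, with mean RPKM 6.12-fold higher for *Ifitm3* and 4.56-fold for *Lgals3bp*. The call was an adjusted p under 0.01 from limma and a log2 fold change beyond 1 in either direction. By it, *Ifitm1*, *Ifitm3*, *Lgals3bp* and *Tmem173* were higher after IL-33, 4 of 51 genes, against 2.8% of all genes tested. None of the 51 was higher after chronic HDM by this call (0 of 51, against 0.536% of all genes tested). By unadjusted p under 0.05, limma had 11 of the 51 (21.6%) higher after IL-33, against 25.5% of all genes tested, and 17 (33.3%) higher after chronic HDM, against 11.2% of all. At the same unadjusted p, limma-voom on reads recovered from the RPKM values had 10 (19.6%, against 21.9% of all) and 13 (25.5%, against 10.2% of all), while by the call it had 0 of the 9523 genes in either direction. In bulk RNA, more cells of a type and more RNA per cell cannot be told apart.

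At an adjusted p under 0.05, limma had 7 genes higher after IL-33 (background 13.8%) and 9 higher after chronic HDM (background 4.78%). The 7 were the 4 above with *Ifitm2*, *Igtp* and *Lgals9*, and the 9 were *Ifi44*, *Ifit1*, *Ifnar1*, *Isg20*, *Oas3*, *Oasl1*, *Oasl2*, *Rsad2* and *Rtp4*. By order of the libraries alone, 24 of the 51 genes (47.1%) were higher in both chronic HDM libraries than in either IL-33 library, against 23.5% of all genes tested, and 13 (25.5%) were higher in both IL-33 libraries, against 41.7%. The groups overlapped for the other 14. On the log2(RPKM + 1) scale the median log2 fold change of IL-33 over chronic HDM was −0.30 for the 51 genes and 0.28 for all genes tested, and 31 of the 51 were negative.

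**Figure D1:**
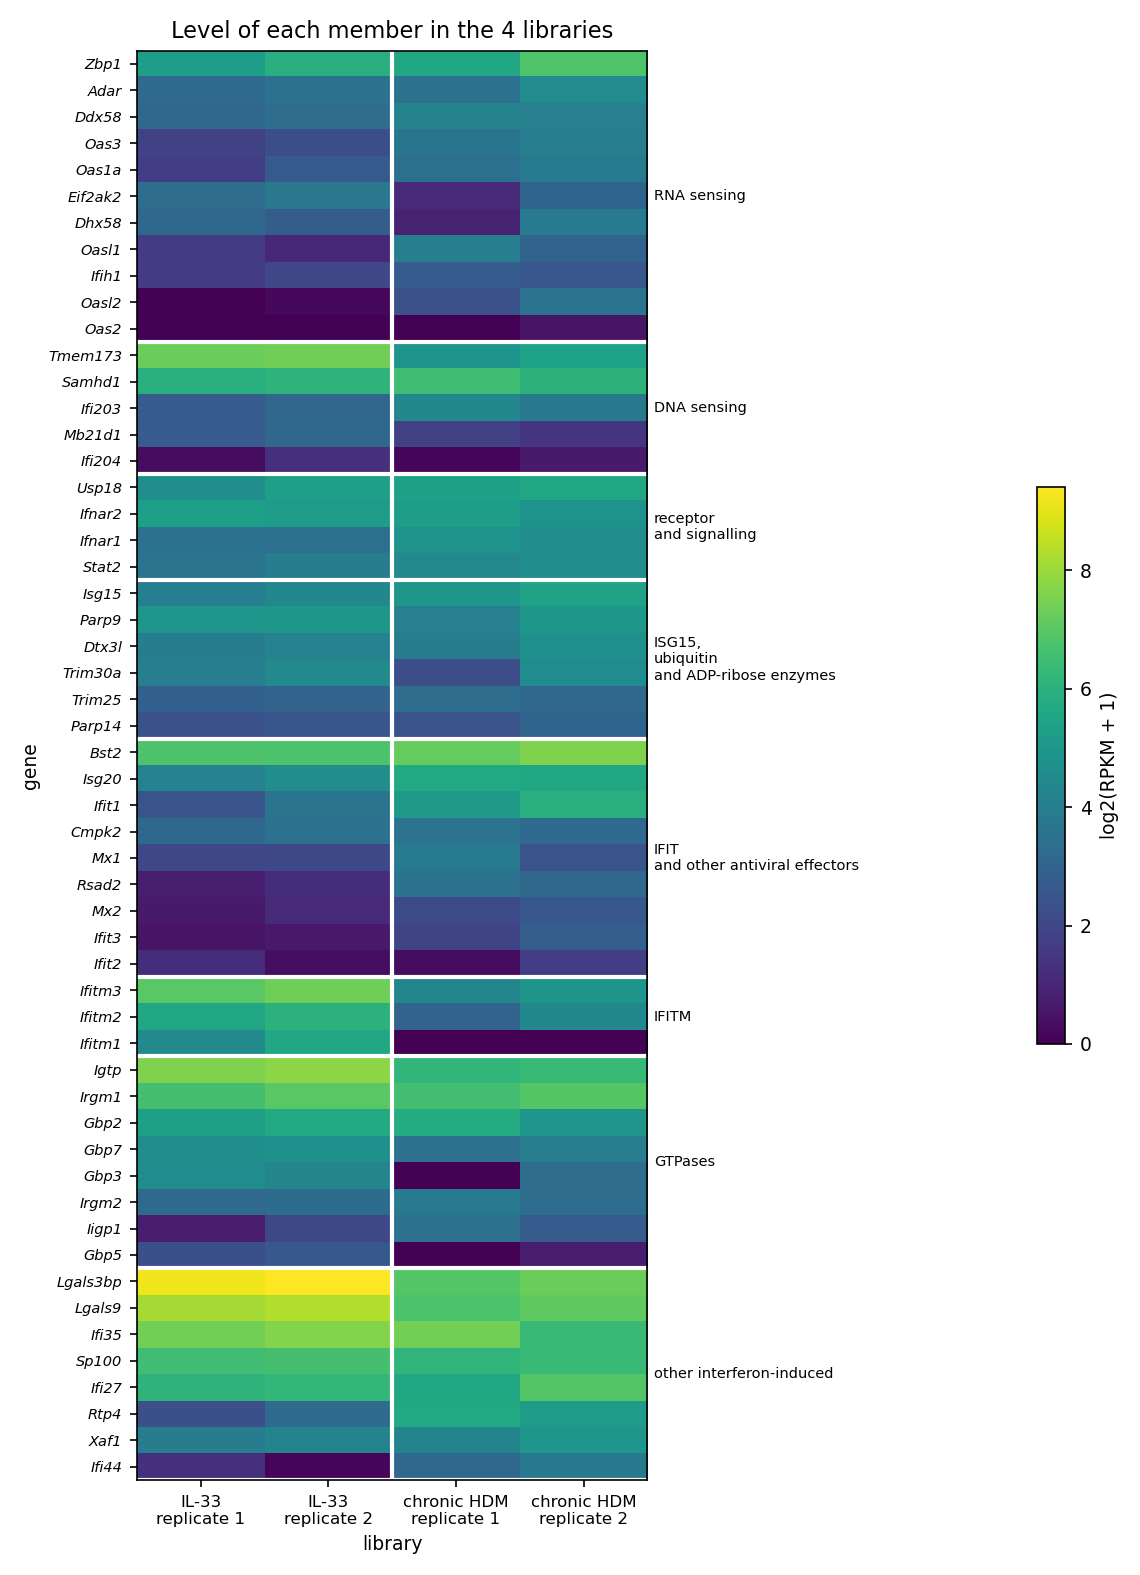
Level of each of the 54 genes in each library as log2(RPKM + 1), on a colour scale, with the IL-33 libraries left and the chronic HDM libraries right of the white line and genes grouped by role. The IFITM genes and *Lgals3bp* are brighter after IL-33, and most of the IFIT and other antiviral effector genes are brighter after chronic HDM.

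Among the sensors of RNA, 6 of 10 tested genes (60%, against 23.5% of all genes tested) were higher in both chronic HDM libraries. In both IL-33 libraries 1 was higher (10%, against 41.7%), and none was called. The median log2 fold change of the 10 was −0.86. *Oasl2*, an OAS-like protein with a ubiquitin-like tail, was at 0 and 0.163 RPKM after IL-33, against 4.04 and 11.1 RPKM after chronic HDM (log2 fold change −2.85 ± 0.63 SE, limma adjusted p = 0.0333). These are 0 and 6 reads after IL-33 and 243 and 636 reads after chronic HDM, so that the gene was close to undetected in IL-33-activated cells at this depth. *Oasl1*, its paralog, which in mice restrains translation of *Irf7*, had 2.17 and 1.13 RPKM after IL-33, against 15.6 and 6.89 RPKM after chronic HDM (−2.14 ± 0.55, limma adjusted p = 0.0494). Of the genes that make 2′-5′ oligoadenylate, the second messenger that activates RNase L, *Oas3* had 2.52 and 3.81 RPKM against 11.5 and 15.2 RPKM (−1.79 ± 0.41, limma adjusted p = 0.0376). *Oas1a* had 2.40 and 5.39 RPKM after IL-33, against 9.77 and 13.6 RPKM after chronic HDM (−1.43 ± 0.48, limma adjusted p = 0.0951). The groups did not overlap for any of these 4 OAS family genes, while the fold of *Oas1a* did not pass an adjusted p of 0.05, and *Oas2* had reads in one chronic HDM library only, at 0.395 RPKM.

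The helicases that detect viral RNA followed the same order at lower contrast. *Ddx58*, encoding RIG-I, had 8.11 and 9.24 RPKM after IL-33, against 17.4 and 16.3 RPKM after chronic HDM (−0.89 ± 0.32, limma adjusted p = 0.110), and *Ifih1*, encoding MDA5, had 2.12 and 2.99 RPKM against 5.72 and 4.89 RPKM (−0.83 ± 0.45, limma adjusted p = 0.239). The third helicase, *Dhx58* (LGP2), which tunes the other two, could not be placed: it had 7.80 and 5.93 RPKM after IL-33, while the chronic HDM libraries stood on either side at 0.868 and 14.1 RPKM. Its log2 fold change was 0.56 ± 1.0 (limma adjusted p = 0.721), and it was −0.95 without chronic HDM replicate 1. *Eif2ak2*, encoding the RNA-activated kinase PKR that blocks translation, was the only RNA sensor higher in both IL-33 libraries, with 9.20 and 12.5 RPKM against 1.18 and 7.19 RPKM (1.47 ± 0.70, limma adjusted p = 0.191). The 2 with the highest means of the remaining ones, *Zbp1* and *Adar*, overlapped between groups, at 37.9 and 58.5 RPKM against 49.3 and 111 RPKM for *Zbp1* and 8.84 and 10.7 RPKM against 10.6 and 22.2 RPKM for *Adar*. *Zbp1* binds Z-form nucleic acid and can start necroptosis, and *Adar* edits double-stranded RNA so that it escapes the sensors. *Adar* overlaps *Chrnb2* on the opposite strand, and reads of the pair cannot be told apart without strand.

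Of the 4 DNA-sensing genes tested, 2 were higher in both IL-33 libraries (50%, against 41.7% of all genes tested). In both chronic HDM libraries 1 was higher (25%, against 23.5%), and 1 overlapped. Both shares thus lay near those of all genes. *Tmem173*, encoding STING, the adaptor that receives the cGAS second messenger, was called higher after IL-33, with 155 and 165 RPKM against 28.5 and 43.3 RPKM after chronic HDM (log2 fold change 2.15 ± 0.27 SE, limma adjusted p = 0.00987). *Mb21d1*, encoding cGAS itself, was much less abundant and had 5.50 and 7.86 RPKM against 2.43 and 1.73 RPKM (1.31 ± 0.46, limma adjusted p = 0.104). Both genes were higher in both IL-33 libraries than in either chronic HDM library, although only *Tmem173* was called. *Ifi203*, a PYHIN family gene, had the opposite order, with 5.66 and 7.66 RPKM after IL-33 against 19.7 and 12.8 RPKM after chronic HDM (−1.15 ± 0.39, limma adjusted p = 0.0958). *Samhd1*, which depletes the nucleotides viruses need, was abundant in all 4 libraries and overlapped between groups, at 58.8 and 69.2 RPKM against 90.7 and 67.5 RPKM. *Ifi204*, another PYHIN gene, stayed between 0.114 and 1.45 RPKM. Reads of the PYHIN genes are uncertain, since these paralogs share sequence.

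Among the receptor and signalling genes none was called, and 3 of 4 (75%, against 23.5% of all genes tested) were higher in both chronic HDM libraries. *Ifnar1*, the receptor chain that binds TYK2, had 10.6 and 9.84 RPKM after IL-33, against 26.9 and 23.4 RPKM after chronic HDM (−1.22 ± 0.30, limma adjusted p = 0.0437). Its partner chain *Ifnar2* had 38.6 and 35.2 RPKM against 37.8 and 27.2 RPKM (0.19 ± 0.28, limma adjusted p = 0.653), with overlap between the groups. *Stat2* had 11.2 and 14.7 RPKM against 20.8 and 23.3 RPKM (−0.73 ± 0.31, limma adjusted p = 0.158), and *Usp18*, which removes ISG15 from proteins and damps receptor signalling, had 25 and 39.0 RPKM against 41.0 and 47.7 RPKM (−0.49 ± 0.31, limma adjusted p = 0.302).

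Of the ISG15, ubiquitin and ADP-ribose genes none was called, and 4 of 6 overlapped between groups. The other 2 (33.3%, against 23.5% of all genes tested) were higher in both chronic HDM libraries. *Isg15*, the ubiquitin-like modifier, had 15.6 and 20.2 RPKM after IL-33, against 30.9 and 41.7 RPKM after chronic HDM (−0.98 ± 0.31, limma adjusted p = 0.0788). *Trim30a*, a TRIM protein of mice, had 15.3 and 21.7 RPKM against 3.65 and 22.9 RPKM, a spread between the chronic HDM libraries that left the fold at 0.87 ± 0.79 (limma adjusted p = 0.469), with −0.31 without chronic HDM replicate 1. *Parp9* and its partner *Dtx3l*, which overlap on opposite strands, were at 29.8 and 30.9 RPKM against 16.3 and 31.4 RPKM and at 14.5 and 17.2 RPKM against 14.5 and 25.6 RPKM. The other genes of this group, *Trim25* and *Parp14*, lay between 4.10 and 9.36 RPKM in all libraries.

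The antiviral effectors were the group most often higher after chronic HDM. All 8 tested genes had a negative log2 fold change, with a median of −1.35, though none was called. Of the 8, 7 (87.5%, against 23.5% of all genes tested) were higher in both chronic HDM libraries. *Ifit1*, which binds viral RNA lacking the host cap methylation, had 4.46 and 11.3 RPKM after IL-33, against 33.1 and 59.9 RPKM after chronic HDM (−2.47 ± 0.52, limma adjusted p = 0.0288). *Rsad2*, encoding viperin, which makes a chain-terminating nucleotide, had 0.728 and 1.33 RPKM against 10.6 and 7.80 RPKM (−2.33 ± 0.47, limma adjusted p = 0.0269). *Isg20*, an exonuclease of single-stranded RNA, had 17.2 and 23.5 RPKM against 51.3 and 48.8 RPKM (−1.27 ± 0.28, limma adjusted p = 0.0318). For *Rsad2* and *Isg20* the RPKM gap between the nearest libraries of the groups was wider than that between the replicates of either group. For *Ifit1* the chronic HDM replicates lay further apart in RPKM than the nearest libraries of the groups. On the log2(RPKM + 1) scale its chronic HDM replicates differed by 0.84 and its IL-33 replicates by 1.17, both less than the group difference.

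Of the remaining effectors, *Ifit3*, *Mx1*, *Mx2* and *Bst2* had the same order, none with an adjusted p under 0.05, while *Cmpk2* and *Ifit2* overlapped between groups. *Ifit3*, a partner of *Ifit1*, had 0.421 and 0.555 RPKM after IL-33, against 2.84 and 6.16 RPKM after chronic HDM (−1.82 ± 0.58, limma adjusted p = 0.0807). *Mx2* and *Mx1*, dynamin-like GTPases that trap viral components, had 0.604 and 1.21 RPKM against 3.36 and 4.89 RPKM (−1.43 ± 0.53, limma adjusted p = 0.114) and 3.02 and 3.07 RPKM against 14.1 and 4.35 RPKM (−1.15 ± 0.60, limma adjusted p = 0.228). C57BL/6 mice are known to carry a defective *Mx1*, so these reads speak of its transcript and not of a working protein. *Bst2*, encoding tetherin, which holds budding virus at the membrane, was high in every library at 108 and 106 RPKM after IL-33 against 145 and 191 RPKM after chronic HDM (−0.63 ± 0.21, limma adjusted p = 0.0919). *Cmpk2*, the neighbour of *Rsad2* in the genome, did not share its difference: it had 7.85 and 10.7 RPKM against 11.1 and 8.27 RPKM (−0.06 ± 0.38, limma adjusted p = 0.927). *Ifit2* stayed at 1.37 and 0.281 RPKM after IL-33, against 0.237 and 2.27 RPKM after chronic HDM.

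**Figure D2:**
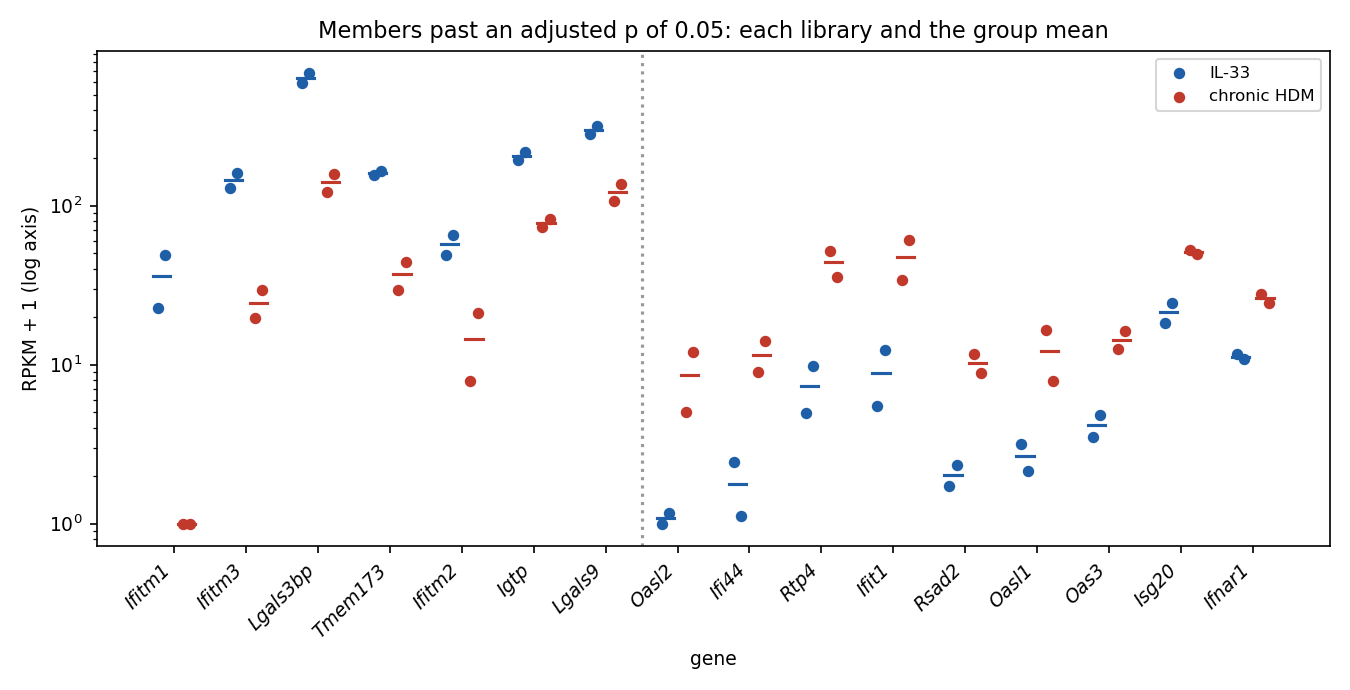
RPKM + 1 on a log axis for the 7 genes higher after IL-33 (left of the dotted line) and the 9 higher after chronic HDM (right) at a limma adjusted p under 0.05, with a point per library, IL-33 left and chronic HDM right within each gene, and a bar at the group mean. The points of the 2 groups do not overlap for any of these 16 genes.

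The IFITM genes, whose products sit in membranes and block viral fusion, were all higher in both IL-33 libraries (100%, against 41.7% of all genes tested). Of the 3, 2 were called, against 2.8% of all genes tested. *Ifitm3* was called higher after IL-33, with 128 and 160 RPKM against 18.7 and 28.3 RPKM after chronic HDM (log2 fold change 2.58 ± 0.29 SE, limma adjusted p = 0.00795). *Ifitm1* was called likewise, with 21.7 and 48.2 RPKM against 0 RPKM in both chronic HDM libraries. With 3 reads per library taken as the floor it was at least 153-fold higher (fitted log2 fold change 5.06 ± 0.53 SE, limma adjusted p = 0.00723). *Ifitm2* had 47.9 and 64.4 RPKM against 6.93 and 20.2 RPKM (2.12 ± 0.51, limma adjusted p = 0.0418), short of the call. These genes lie together on chromosome 7 and are near-identical in parts, so reads could be split between them.

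The interferon-inducible GTPases, which attack the vacuoles of intracellular parasites, were split, with none called. In both IL-33 libraries 4 of 8 were higher (50%, against 41.7% of all genes tested). In both chronic HDM libraries 2 were higher (25%, against 23.5%), so both shares lay near those of all genes. *Igtp* (IRGM3) had 193 and 217 RPKM after IL-33, against 72.2 and 81.1 RPKM after chronic HDM (1.41 ± 0.19, limma adjusted p = 0.0111), short of the call at an adjusted p under 0.01. *Irgm1*, as abundant, did not differ by more than its spread, with 97.7 and 128 RPKM against 95.1 and 119 RPKM (0.07 ± 0.24, limma adjusted p = 0.860), and its sign flipped to −0.46 with quantile scaling, −0.16 with median-of-ratios scaling and −0.22 with 45S ribosomal RNA left out of the totals. *Irgm2* had 8.51 and 9.0 RPKM against 14.0 and 9.28 RPKM (−0.35 ± 0.37, limma adjusted p = 0.543). *Iigp1*, an effector GTPase that the IRGM proteins hold in check, had 0.702 and 3.07 RPKM against 10.6 and 5.61 RPKM (−1.73 ± 0.62, limma adjusted p = 0.108). This effector thus had the opposite order to *Igtp*.

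Of the guanylate-binding protein (GBP) genes, *Gbp5*, *Gbp3* and *Gbp7* were higher in both IL-33 libraries, none with an adjusted p under 0.05. *Gbp5* had 3.91 and 4.95 RPKM after IL-33, against 0.017 and 0.669 RPKM after chronic HDM (2.05 ± 0.56, limma adjusted p = 0.0570), the lower value being 1 read. *Gbp3* had 22.6 and 18.2 RPKM against 0 and 9.20 RPKM (2.74 ± 1.08, limma adjusted p = 0.131), and in reads chronic HDM replicate 1 had 0 where replicate 2 had 438. Without chronic HDM replicate 1 its log2 fold change was 1.06. *Gbp7* had 24.7 and 25.7 RPKM against 10.6 and 15.4 RPKM (0.93 ± 0.32, limma adjusted p = 0.0997). *Gbp2* overlapped between groups, with 39.8 and 51.3 RPKM against 55.0 and 29.1 RPKM. The GBP genes are paralogs clustered on chromosome 3, and reads may be split between them.

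Of the other interferon-induced genes, *Lgals3bp*, a secreted ligand of galectins, was called higher after IL-33 and was the most abundant of the 54. It had 588 and 679 RPKM against 121 and 157 RPKM (log2 fold change 2.19 ± 0.20 SE, limma adjusted p = 0.00687). *Lgals9*, encoding galectin-9, had 282 and 317 RPKM against 107 and 137 RPKM (1.30 ± 0.20, limma adjusted p = 0.0140). In contrast, *Rtp4*, a receptor transporter protein, had 3.94 and 8.74 RPKM after IL-33 against 51 and 34.8 RPKM after chronic HDM (−2.64 ± 0.45, limma adjusted p = 0.0178). *Ifi44* had 1.42 and 0.118 RPKM against 8.02 and 13.0 RPKM (−2.77 ± 0.59, limma adjusted p = 0.0303). The abundant *Ifi35*, *Sp100* and *Ifi27* differed by less than these. *Ifi35* had 168 and 201 RPKM against 168 and 79.5 RPKM (0.66 ± 0.37, limma adjusted p = 0.255), and *Sp100*, a nuclear body protein, had 92.2 and 97.7 RPKM against 69.9 and 81.9 RPKM (0.32 ± 0.20, limma adjusted p = 0.305), which was −0.21 with quantile scaling. *Ifi27* had 68.6 and 74.6 RPKM against 48.4 and 117 RPKM (−0.07 ± 0.43, limma adjusted p = 0.921), and 0.56 without chronic HDM replicate 2. *Xaf1* had 15.0 and 17.4 RPKM against 17.8 and 29.4 RPKM.

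**Figure D3:**
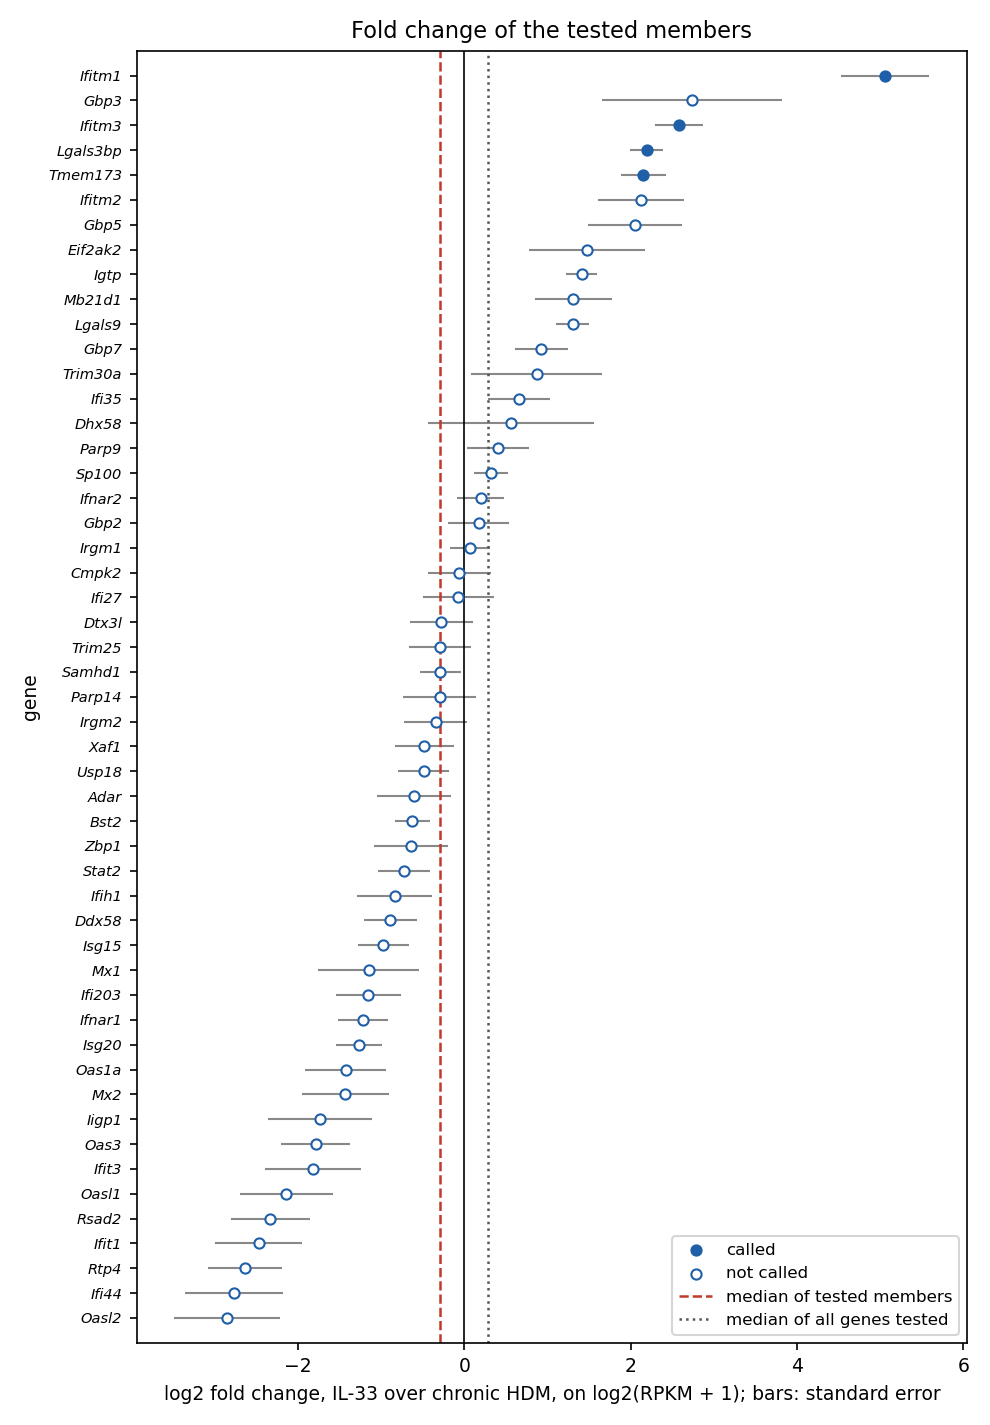
Difference in log2(RPKM + 1), IL-33 minus chronic HDM, with its standard error for the 51 tested genes, filled where called at a limma adjusted p under 0.01. The 4 called genes lie between 2.15 and 5.06, and the dashed median of the 51 genes (−0.30) lies left of 0 and the dotted median of all genes tested (0.28) right of it.

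The 2 chronic HDM libraries agreed less closely over these genes than the 2 IL-33 libraries. On the log2(RPKM + 1) scale the chronic HDM libraries differed by a median of 0.54 over the 51 genes (0.57 over all genes tested), and the IL-33 libraries by 0.32 (0.23 over all). A difference of over 1 was found for 12 of the 51 genes (23.5%) between the chronic HDM libraries, against 28.2% of all genes, and for 4 (7.84%) between the IL-33 libraries, against 3.6%. Of the RNA sensors, 6 of 10 differed by over 1 between the chronic HDM libraries. Chronic HDM replicate 2 was the higher one for 32 of the 51 genes (62.7%), against 44.2% of all genes tested. *Gbp3*, *Dhx58* and *Trim30a* stood furthest apart, by 3.35, 3.01 and 2.36, and each was lower in replicate 1.

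**Figure D4:**
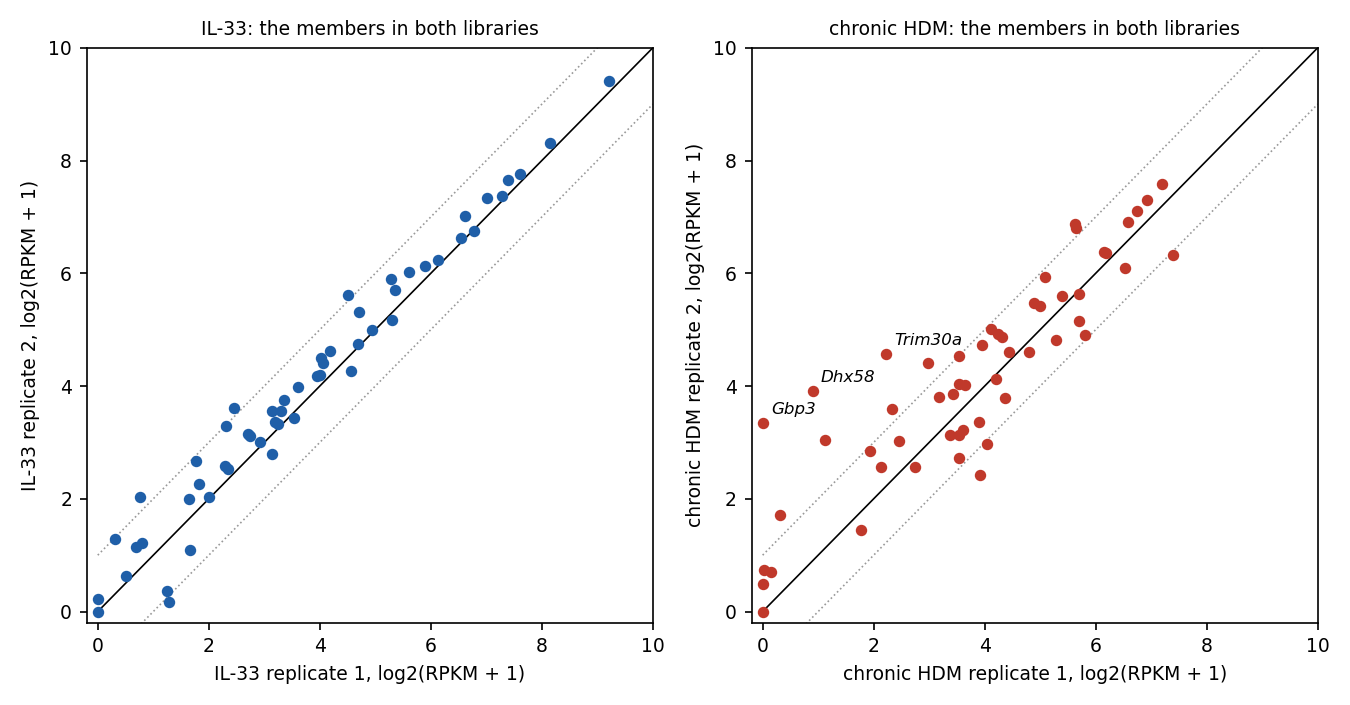
Log2(RPKM + 1) of the 54 genes in replicate 2 against replicate 1, for IL-33 (left) and chronic HDM (right), with the line of equality and dotted lines at a difference of 1. The points lie closer to the line for IL-33, where 4 of the 51 tested genes differ by over 1, than for chronic HDM, where 12 do, and *Gbp3*, *Dhx58* and *Trim30a* are named in the chronic HDM panel.

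The macrophage markers, which moved with the chronic HDM group, also differed between its libraries, with a sum of 3185 RPKM in replicate 1 and 9474 RPKM in replicate 2. *Chil3* and *Lyz2* carried most of the sum, and not every macrophage marker had this order: *Adgre1* had 9.25 RPKM in replicate 1 and 3.43 RPKM in replicate 2, and *Mertk*, at 0.13 and 0 RPKM after IL-33, had 12.8 and 7.88 RPKM. A few markers of other cell types were higher in both chronic HDM libraries too, 1 of 8 for monocytes and neutrophils and 1 of 5 for eosinophils. Of all genes tested, 23.5% had this order. The summed monocyte and neutrophil markers were 0.683 and 0.566 RPKM after IL-33, against 20.7 and 9.24 RPKM after chronic HDM, with *S100a8* at 14.1 and 6.46 RPKM and *Ly6g* at 0 throughout. Eosinophil markers summed to 22.8 and 5.89 RPKM against 59 and 46.1 RPKM, with *Epx* at 0 throughout. Most of that sum was *Ear2*, at 20.6 and 3.47 RPKM against 51.5 and 43.0 RPKM. Of 7 epithelial markers, 2 were higher in both chronic HDM libraries and 1 in both IL-33 libraries, against 23.5% and 41.7% of all genes tested. *Epcam* had 3.65 and 1.91 RPKM against 21.5 and 9.07 RPKM, while *Krt18* had 4.28 and 2.88 RPKM against 0 in both. Of the 24 genes higher in both chronic HDM libraries, 12 were higher in replicate 1 and 12 in replicate 2. Of the 9 past an adjusted p of 0.05, *Oasl1*, *Ifnar1*, *Rsad2*, *Isg20* and *Rtp4* were higher in replicate 1 and *Oas3*, *Oasl2*, *Ifit1* and *Ifi44* in replicate 2. The part of RNA from other cells in these differences was not tested. For the genes higher after IL-33, summed mast cell and basophil markers were 52.2 and 43.1 RPKM after IL-33 against 0 and 2.87 RPKM after chronic HDM. *Mcpt8* made up most of this, at 45.8 and 39.2 RPKM against 0 in both, with *Ms4a2*, *Mcpt4* and *Tpsb2* at 0 throughout. B cell markers summed to 38.4 and 27.4 RPKM against 8.75 and 6.80 RPKM. After IL-33 all of this was *Cd79b*, while the other 6 of 7 had no reads, and *Ms4a1* was at 0 throughout.

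Outside the 54 genes, 88 further genes of the interferon pathway were matched, of which 64 were tested. Of these, 1 was called higher after IL-33 (2.8% of all genes tested), 1 higher after chronic HDM (0.536% of all) and 62 were not called. Their median log2 fold change was −0.30, with 15 (23.4%, against 41.7% of all genes tested) higher in both IL-33 libraries and 29 (45.3%, against 23.5%) higher in both chronic HDM libraries. Of 9 interferon ligands, 8 had no reads in any library, and *Ifng* had 1.59 and 0.707 RPKM after IL-33 against no reads after chronic HDM. The gene called higher after chronic HDM was *Irf7*, the interferon-inducible factor that amplifies type I interferon. It had 13.0 and 19.9 RPKM after IL-33, against 94.4 and 117 RPKM after chronic HDM (log2 fold change −2.64 ± 0.30 SE, limma adjusted p = 0.00844). The gene called higher after IL-33 was *Plac8*, with 284 and 314 RPKM against 57.2 and 64.5 RPKM (2.28 ± 0.19, limma adjusted p = 0.00687).

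*Irf9*, the DNA-binding partner of *Stat2*, overlapped between groups, with 53.1 and 51.1 RPKM after IL-33, against 55.7 and 47.3 RPKM after chronic HDM (0.02 ± 0.23, limma adjusted p = 0.962). *Jak1* and *Ifngr1*, the most abundant of the receptor and kinase genes, overlapped between groups, at 125 and 123 RPKM against 136 and 96.4 RPKM and at 186 and 252 RPKM against 231 and 136 RPKM. Of the 8 receptor and JAK-STAT genes tested, 3 (37.5%, against 23.5% of all) were higher in both chronic HDM libraries. In both IL-33 libraries 1 was higher (12.5%, against 41.7%), and none was called. *Ifngr2* had 22.1 and 22.9 RPKM against 86.4 and 53.8 RPKM (−1.56 ± 0.31, limma adjusted p = 0.0249). *Tyk2* had 11.5 and 12.1 RPKM against 35.9 and 25.5 RPKM (−1.29 ± 0.31, limma adjusted p = 0.0421). Of the genes that restrain the response, none was called, and the 2 with the highest means, *Socs1* and *Ptpn6*, had 48.3 and 53.2 RPKM against 185 and 73.2 RPKM and 64.9 and 106 RPKM against 89.2 and 51.5 RPKM. The endosomal sensors *Tlr3*, *Tlr7* and *Tlr9* had no reads in any library.

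The 4 calls among the 54 genes depended on the processing and on single libraries. All 4 were lost with any of the 3 other scalings, a pseudocount of 0.1, no minimum RPKM, no intensity trend and limma-voom, and also without IL-33 replicate 1 or without IL-33 replicate 2, where 1 library stands for the group and their limma adjusted p was 0.269 to 0.310. Over all 15 alternatives the limma adjusted p of the 4 genes ranged from 1.27e-05 to 0.310. Their direction was kept in each, with log2 fold changes of 4.11 to 9.58 for *Ifitm1*, 2.15 to 2.87 for *Ifitm3*, 1.70 to 2.38 for *Lgals3bp* and 1.68 to 2.45 for *Tmem173*. Without chronic HDM replicate 1, 7 of 51 genes (13.7%, against 16.3% of all genes tested) were called higher after IL-33, and *Ifit3*, *Oasl2* and *Rsad2* (5.88%, against 4.04% of all) were called higher after chronic HDM. Without chronic HDM replicate 2, 12 of 51 (23.5%, against 19.7% of all) were called higher after IL-33 and 5 (9.8%, against 6.28% of all) higher after chronic HDM, namely *Mx1*, *Oasl1*, *Oasl2*, *Rsad2* and *Rtp4*.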

How the data were processed

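RNA of sorted BAL fluid ILC2s was sequenced as Smart-seq2 libraries (51-bp single reads). Per the submitters' processing notes HISAT2 2.0.4 and HOMER were used, and the genome was mm10. The authors deposited 1 RPKM value per gene, for reads over exons. They called genes with DESeq2 on counts, which were not used here. RPKM multiplied by exon length gave whole reads (within 0.1 of a read) for 99.8% to 100% of values of up to 20 reads, from which depth was taken.

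Values were analysed as log2(RPKM + 1) with limma 3.58.1 (R 4.3.3) using a variance prior that followed expression level. Tests were two-sided with Benjamini-Hochberg adjustment over the 9523 genes whose mean reached 2 RPKM. Thresholds were an adjusted p of 0.01 and a log2 fold change of 1, as in the study's methods. Since the unit is RPKM, limma stood in for a count model, and fold changes of low genes are understated by the pseudocount. The procedure was tested on simulated data. Positions are those of the files (mm10); promoter windows are from RefSeq.

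Genes given with full values were those called, those whose groups did not overlap with a log2 fold change beyond 1, the 10 with the highest mean, and those with chronic HDM libraries over 2 apart on the log2 scale with 5 RPKM in one. Other genes of the 54 were added for completeness. The 54 genes, the pathway and marker lists and these rules were chosen with earlier results of these data known. Of 91 further pathway genes, 3 had no match (*Mnda*, *Pyhin1*, *Rnf213*). No promoter window was matched for *Dhx58*, *Zbp1*, *Oas2*, *Tmem173*, *Ifi204*, *Usp18*, *Parp9*, *Parp14*, *Mx1*, *Mx2*, *Iigp1*, *Rtp4* and *Ifi27*. Alternatives covered the pseudocount, minimum, scaling, variance prior, replicate block, threshold, limma-voom and each library left out. A few genes of the lists are not reported here by name.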

Additional observations from a re-analysis of the deposited data

How the results depend on the processing

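Counts are given as higher after IL-33 and higher after chronic HDM. The 4 and 0 calls among the 51 genes became 0 and 0 with a pseudocount of 0.1, no minimum RPKM, quantile scaling, median-of-ratios scaling, 45S ribosomal RNA left out of totals, no intensity trend and limma-voom. They became 7 and 9 at an adjusted p of 0.05. With 1 library left out they ranged from 0 to 12 and from 0 to 5. Over all genes the 267 and 51 calls became 0 and 0 with a pseudocount of 0.1, no minimum, no trend and limma-voom, 48 and 40 with quantile scaling, 85 and 40 with median-of-ratios scaling, 53 and 29 without 45S RNA, 1311 and 455 at an adjusted p of 0.05, and 0 to 1872 and 0 to 598 with 1 library left out. The other pathway genes, 1 and 1, became 0 and 0 with a pseudocount of 0.1, no minimum, quantile scaling, without 45S RNA, no trend and limma-voom, 1 and 0 with median-of-ratios scaling, 4 and 8 at an adjusted p of 0.05, and 0 to 7 and 0 to 10 with 1 library left out. The cause of these shifts was not tested, other than that a library left out leaves 1 in its group, assumed to vary like the other group.

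With the replicate block, calls were 7 and 2 among the 51 genes, 987 and 267 over all genes and 3 and 6 among the pathway genes. The numbers did not pair the libraries: the correlation of replicate 1 minus replicate 2 between groups was −0.0385 over 9523 genes, with 2 pairs.

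With 1 library left out the log2 fold change ranged from −0.95 to 2.06 for *Dhx58*, −0.31 to 2.05 for *Trim30a*, −0.70 to 0.56 for *Ifi27* and −0.12 to 0.26 for *Irgm1*. Signs changed for *Dhx58* and *Trim30a* without chronic HDM replicate 1, *Ifi27* without chronic HDM replicate 2, *Sp100* (−0.21) with quantile scaling, and *Irgm1* with quantile (−0.46) and median-of-ratios scaling (−0.16), without 45S RNA (−0.22), with limma-voom (−0.054), without IL-33 replicate 2 (−0.12) and without chronic HDM replicate 1 (−0.094). The median of all genes moved by −0.25 with quantile scaling, −0.21 with median-of-ratios scaling, −0.26 without 45S RNA and −0.12 with no minimum. The median of the 51 genes was −0.59 to −0.20 over the alternatives, and its difference from the median of all genes was −0.90 (without chronic HDM replicate 1) to −0.45 (no minimum RPKM).

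Depth limits the low genes: 3 reads on a 1-kb transcript are 0.229 and 0.255 RPKM after IL-33, against 0.156 and 0.163 RPKM after chronic HDM. A further limit is 2 libraries per group.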
